A study of Mus musculus with 6 samples.

Results

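The genes described here carry out the G2 phase of the cell cycle and mitosis: 49 genes named as a list for entry into mitosis, spindle assembly, the kinetochore and cell division. They were compared between Gata3+/- and Gata3-/- cells on 6 Affymetrix arrays, 3 of each genotype. The members were chosen by gene symbol, with earlier results of these data known. Of the 49, 48 had a probe set annotated to their symbol alone, and all 48 were bright enough to be tested, among 10302 genes tested in all. Ccnb1, which encodes a B-type cyclin, was not matched and is not analysed here. Each gene is given by 1 probe set, the one with the highest mean over the arrays.

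The cells came from mouse embryonic stem cells in which 1 copy of Gata3 (Gata3+/-) or both (Gata3-/-) were disrupted, so the comparison has no wild-type group. GATA3, a zinc finger protein that binds DNA, is required early in the T lineage. The stem cells were grown on OP9 and OP9-DL1 stroma, which are bone marrow stromal lines, with the cytokines IL-7 and Flt3L, and T-cell progenitors were then sorted from the cultures. No source used here gives the disrupted part of Gata3, the number of stem cell clones, the days of culture or the sort markers. Replicates are called biological in the titles, with no word on separate cultures or clones, so the p-values cover the spread between arrays, which may be technical in part. Levels are log2 of the deposited GC-RMA intensity, a background-corrected and normalized array signal, and differences are Gata3-/- minus Gata3+/- on that log2 scale. Probe sets with a log2 level of at least 4, called the minimum here, on 3 or more of the 6 arrays were tested. A difference was called when its adjusted p from limma, over the 20102 probe sets tested, was under 0.05.

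Cells enter mitosis when cyclin A2 and B cyclins activate the kinase CDK1, helped by CDC25 phosphatases and by the Aurora A and Polo-like kinases. Kinetochores on the centromeres then capture spindle microtubules, and the spindle checkpoint holds back the anaphase promoting complex until every chromosome is attached. Most of these genes are transcribed in waves that peak in G2 and mitosis and are low in resting cells, so in a bulk sample their RNA follows how many cells are cycling. Their promoters are known for CCAAT boxes, bound by NF-Y, and for the CHR (cell cycle genes homology region), which recruits MuvB complexes. As the core of DREAM, MuvB represses in resting cells, and with B-MYB and FOXM1 it activates in cycling cells.

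RefSeq promoters (GRCm38.p6) were found for 40 of the 48 genes, and the 250 bases before each start were searched on both strands for the CHR letters TTTGAA and TTCGAA and for CCAAT. The reverse complement of TTTGAA is TTCAAA, while TTCGAA reads the same on both strands. A CHR within 60 bases before the start was found in 9 of the 40 genes, or 22.5%, against 2.56% of the 8435 tested genes with a promoter. At least 2 CCAAT boxes stood in 18 of the 40, or 45%, against 15.5%. These 9 promoters are shown because they carry the element closest to the start; their differences on the arrays ran from -0.55 for Ube2c to 0.07 for Top2a. Each line gives the 120 bases before the start, 5′ to 3′ on the strand of the gene, and the capitals mark CHR and CCAAT letters, read on either strand.
Ube2c, chr2:164769809-164769928, plus strand: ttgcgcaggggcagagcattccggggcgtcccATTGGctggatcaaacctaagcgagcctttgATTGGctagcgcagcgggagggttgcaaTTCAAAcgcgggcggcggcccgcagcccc
Ncapg, chr5:45669805-45669924, plus strand: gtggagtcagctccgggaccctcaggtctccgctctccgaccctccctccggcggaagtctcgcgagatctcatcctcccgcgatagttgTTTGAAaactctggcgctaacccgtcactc
Prc1, chr7:80294356-80294475, plus strand: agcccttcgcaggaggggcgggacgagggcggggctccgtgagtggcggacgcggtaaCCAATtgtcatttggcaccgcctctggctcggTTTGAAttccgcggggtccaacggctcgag
Cdk1, chr10:69352913-69353032, minus strand: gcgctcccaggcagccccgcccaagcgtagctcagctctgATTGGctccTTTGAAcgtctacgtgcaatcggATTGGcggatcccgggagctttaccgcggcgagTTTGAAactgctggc
Cdc20, chr4:118437344-118437463, minus strand: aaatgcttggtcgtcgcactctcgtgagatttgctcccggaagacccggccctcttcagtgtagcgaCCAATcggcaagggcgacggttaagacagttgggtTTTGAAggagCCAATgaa
Kif11, chr19:37376262-37376381, plus strand: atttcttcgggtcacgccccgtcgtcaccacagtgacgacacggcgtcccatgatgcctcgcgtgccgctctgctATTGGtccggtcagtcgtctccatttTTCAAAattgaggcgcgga
Bub3, chr7:131560250-131560369, plus strand: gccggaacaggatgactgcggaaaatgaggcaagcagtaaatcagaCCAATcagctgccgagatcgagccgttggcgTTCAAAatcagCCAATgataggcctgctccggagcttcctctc
Espl1, chr15:102296173-102296292, plus strand: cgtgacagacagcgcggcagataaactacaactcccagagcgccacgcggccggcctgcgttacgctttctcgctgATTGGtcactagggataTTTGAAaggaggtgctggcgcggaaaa
Top2a, chr11:99024190-99024309, minus strand: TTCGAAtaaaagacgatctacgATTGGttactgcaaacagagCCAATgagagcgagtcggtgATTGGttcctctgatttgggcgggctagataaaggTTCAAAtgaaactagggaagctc

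A match of letters is a description, and binding was not measured. The median difference was -0.28 for these 9 genes and -0.33 for the 31 without the element within 60 bases, so on the arrays both sets lay to the same side of 0.

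In the comparison of genotypes, 44 of the 48 mitotic genes had a lower mean in Gata3-/- arrays, with a median difference of -0.33 and a range from -0.66 for Cdc25b to 0.09 for Pttg1. Over all genes tested 53.3% were lower and the median difference was -0.02. Only Incenp passed the threshold, which is 1 of 48 where 5.27% of all genes passed (2.41% lower and 2.86% higher), so the share called was not above the background. At an unadjusted limma p under 0.05, 27 of the 48, or 56.2%, were lower and 0 were higher, against 12.3% and 13.6% of all genes. The genotypes did not overlap, with all Gata3-/- arrays lower, in 31 of 48 genes, against 16.7% of all genes, and with all Gata3-/- arrays higher in 1, Pttg1, against 16.9%. The shifts were small and shared: 6 of the 48 had an adjusted p under 0.06 and 12 under 0.1, all of them lower, against 6.96% and 13.3% of all genes. Mitotic genes vary together from array to array, so these counts are not counts of independent observations. The RNA on an array came from a whole sorted population, in which fewer cycling cells and less mitotic RNA per cell cannot be told apart.

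**Figure D1:**
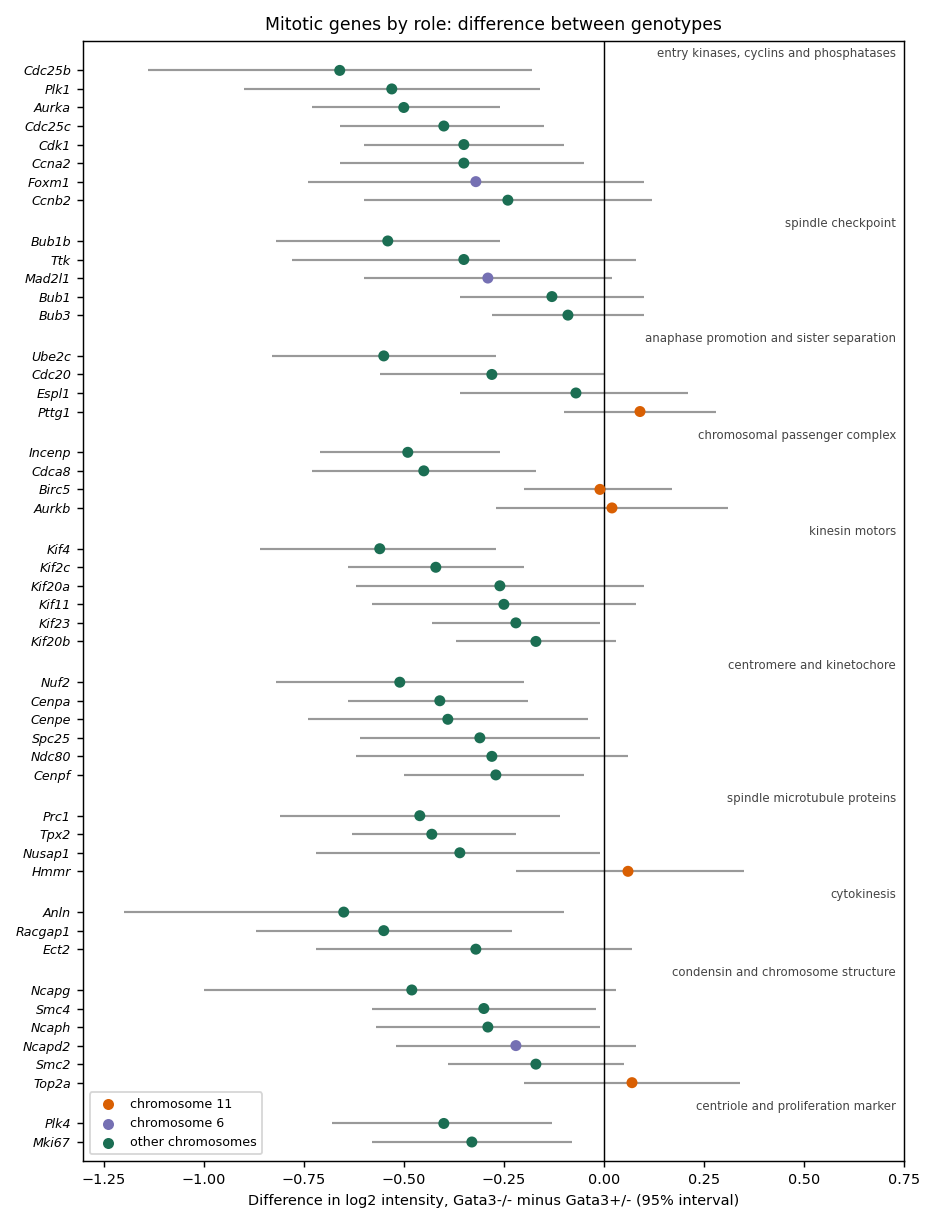
Difference in log2 intensity between genotypes for the 48 mitotic genes tested, grouped by role. Points are Gata3-/- minus Gata3+/- (3 arrays each), lines are 95% intervals from limma, and colours mark chromosomes 6 and 11. Of the points, 44 lie below 0, and the 4 above it are Pttg1, Top2a, Hmmr and Aurkb, which lie on chromosome 11.

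Among the genes that drive entry into mitosis, all 8 measured members had a negative difference, with a median of -0.38, and 0 passed with limma. At an unadjusted limma p under 0.05, 6 were lower. Beside these and the later counts by role, 53.3% of all genes were negative and 12.3% were lower at that p. Aurka, the centrosomal Aurora A kinase, stood at 10.85, 10.84 and 10.72 on the Gata3+/- arrays and 10.16, 10.37 and 10.40 on the Gata3-/- arrays. The genotypes did not overlap, and the difference was -0.50 (SE 0.09, adjusted p = 0.0508). Plk1, the Polo-like kinase that acts from mitotic entry to cytokinesis, stood at 10.40, 10.51 and 10.37 on the Gata3+/- arrays and 9.59, 10.11 and 9.98 on the Gata3-/- arrays. Gata3-/- array 1 lay lowest, no arrays overlapped, and the difference was -0.53 (SE 0.15, adjusted p = 0.105). Cdk1 itself, the catalytic partner of the mitotic cyclins, measured 12.18, 12.04 and 12 on the Gata3+/- arrays and 11.56, 11.82 and 11.79 on the Gata3-/- arrays, a difference of -0.35 (SE 0.10, adjusted p = 0.114). Every Gata3-/- array lay below every Gata3+/- array for this kinase, although the gap between the closest arrays was small.

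The phosphatases that remove inhibitory phosphates from CDK1 showed the same direction. Cdc25b had the most negative difference of the list, at 7.36, 7.60 and 8.09 on the Gata3+/- arrays and 6.94, 7.08 and 7.06 on the Gata3-/- arrays. Its Gata3+/- arrays were widely spread, with array 3 highest, and the difference was -0.66 (SE 0.19, adjusted p = 0.116). Cdc25c measured 8.03, 8.16 and 8.06 on the Gata3+/- arrays and 7.61, 7.86 and 7.58 on the Gata3-/- arrays, without overlap, and differed by -0.40 (SE 0.10, adjusted p = 0.086). Of the cyclins, Ccna2 differed by -0.35 (SE 0.12, adjusted p = 0.16) and Ccnb2 by -0.24 (SE 0.14, adjusted p = 0.379), the latter with overlapping arrays. Foxm1, a forkhead activator of many G2/M genes, differed by -0.32 (SE 0.17, adjusted p = 0.32), and its Gata3-/- array 3 reached into the Gata3+/- range.

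Spindle checkpoint genes differed in size more than in direction: 5 of 5 were negative and 0 passed with limma. At an unadjusted limma p under 0.05, 1 was lower, where 12.3% of all genes were. Bub1b, which encodes the checkpoint protein BUBR1, stood at 10.20, 10.30 and 10.16 on the Gata3+/- arrays and 9.50, 9.87 and 9.68 on the Gata3-/- arrays. No Gata3-/- array reached the lowest Gata3+/- array, and the difference was -0.54 (SE 0.11, adjusted p = 0.0595). Bub3, the partner that brings BUB1 and BUBR1 to kinetochores, measured 12.53, 12.54 and 12.46 on the Gata3+/- arrays and 12.32, 12.49 and 12.45 on the Gata3-/- arrays, and the arrays overlapped. That gene's difference was -0.09 (SE 0.08, adjusted p = 0.535), with a 95% interval from -0.28 to 0.10. Between these lay Ttk, the MPS1 kinase, at -0.35 (adjusted p = 0.294), Mad2l1, the MAD2 inhibitor of CDC20, at -0.29 (adjusted p = 0.241) and Bub1 at -0.13 (adjusted p = 0.457).

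Downstream of the checkpoint, Ube2c, the ubiquitin-conjugating enzyme of the anaphase promoting complex, stood at 12.43, 12.45 and 12.26 on the Gata3+/- arrays and 11.64, 11.98 and 11.86 on the Gata3-/- arrays. It differed by -0.55 (SE 0.11, adjusted p = 0.0584), and the genotypes did not overlap. Cdc20, the activator of the complex that the checkpoint inhibits, differed by -0.28 (SE 0.11, adjusted p = 0.216). Espl1, the protease separase that opens cohesin rings, had a difference of -0.07 (SE 0.11, adjusted p = 0.752) and overlapping arrays. Pttg1, the securin that holds separase inactive, was the exception in this role: 13.68, 13.64 and 13.67 on the Gata3+/- arrays and 13.71, 13.86 and 13.69 on the Gata3-/- arrays. All of its Gata3-/- arrays lay above all Gata3+/- arrays, by little, and the difference was 0.09 (SE 0.08, adjusted p = 0.543).

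The chromosomal passenger complex, which corrects faulty attachments and later directs cytokinesis, divided into pairs. Incenp, its scaffold, fell 1.4-fold and was the called gene of the list: 12.91, 13.06 and 12.84 on the Gata3+/- arrays and 12.43, 12.54 and 12.38 on the Gata3-/- arrays, with a difference of -0.49 (SE 0.09, adjusted p = 0.0477). This call was lost when any 1 array was left out, where 0 of the 48 genes and 0 to 4 of all 10302 genes passed with limma and the adjusted p for Incenp was between 0.0793 and 0.138. Cdca8, the subunit borealin, measured 11.89, 12.06 and 11.82 on the Gata3+/- arrays and 11.34, 11.64 and 11.45 on the Gata3-/- arrays and differed by -0.45 (SE 0.11, adjusted p = 0.0845). By contrast Birc5, the subunit survivin, stood at 13.07, 12.96 and 13.01 on the Gata3+/- arrays and 12.93, 13.07 and 13 on the Gata3-/- arrays, which overlap almost fully. Its difference was -0.01 (SE 0.07, adjusted p = 0.942), with a 95% interval from -0.20 to 0.17. Aurkb, the kinase of the complex, measured 11.15, 11.12 and 11 on the Gata3+/- arrays and 10.90, 11.17 and 11.27 on the Gata3-/- arrays and differed by 0.02 (SE 0.12, adjusted p = 0.945), with an interval from -0.27 to 0.31. Birc5 and Aurkb lie on chromosome 11, Incenp and Cdca8 on chromosomes 19 and 4.

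All 6 mitotic kinesins, motor proteins of the spindle, had negative differences, with a median of -0.25. Kif2c, which depolymerizes microtubules at centromeres, stood at 10.63, 10.56 and 10.71 on the Gata3+/- arrays and 10.09, 10.32 and 10.22 on the Gata3-/- arrays, a difference of -0.42 (SE 0.09, adjusted p = 0.0595). Kif4, a chromokinesin of the midzone, measured 8.35, 8.39 and 8.41 on the Gata3+/- arrays and 7.60, 7.85 and 8.02 on the Gata3-/- arrays and differed by -0.56 (SE 0.12, adjusted p = 0.0607). In both genes the Gata3-/- arrays lay below all Gata3+/- arrays. The others had smaller differences: -0.26 (adjusted p = 0.356) for Kif20a and -0.22 (adjusted p = 0.198) for Kif23, motors of cytokinesis, -0.25 (adjusted p = 0.334) for Kif11, which pushes spindle poles apart, and -0.17 (adjusted p = 0.279) for Kif20b. Of these 4, Kif23 and Kif20b showed no overlap, with all Gata3-/- arrays lower, as in 16.7% of all genes. Their closest Gata3+/- and Gata3-/- arrays stood at 10.15 and 10.07 for Kif23 and at 9.93 and 9.91 for Kif20b.

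Centromere and kinetochore genes were all negative as well, 6 of 6, with a median of -0.35. At an unadjusted limma p under 0.05, 5 were lower, where 12.3% of all genes were. Cenpa, the histone variant that marks centromeres, stood at 11.72, 11.85 and 11.74 on the Gata3+/- arrays and 11.23, 11.46 and 11.39 on the Gata3-/- arrays. The genotypes did not overlap and differed by -0.41 (SE 0.09, adjusted p = 0.0655). Nuf2, a subunit of the NDC80 complex that grips microtubules, measured 9.49, 9.36 and 9.33 on the Gata3+/- arrays and 8.64, 9 and 9.02 on the Gata3-/- arrays, a difference of -0.51 (SE 0.13, adjusted p = 0.0811). The other subunits of that complex on the list were Ndc80 at -0.28 (adjusted p = 0.286) and Spc25 at -0.31 (adjusted p = 0.207). Cenpe, a kinetochore motor, differed by -0.39 (adjusted p = 0.174) and Cenpf by -0.27 (adjusted p = 0.147).

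Among proteins that organize spindle microtubules, Tpx2, the activator of Aurora A, stood at 10.52, 10.46 and 10.44 on the Gata3+/- arrays and 9.92, 10.10 and 10.12 on the Gata3-/- arrays. Its Gata3+/- arrays lay close together, all above the Gata3-/- arrays, and the difference was -0.43 (SE 0.08, adjusted p = 0.0519). Prc1, which bundles antiparallel microtubules in the midzone, differed by -0.46 (SE 0.14, adjusted p = 0.13), and Nusap1, a microtubule crosslinker, by -0.36 (SE 0.14, adjusted p = 0.204). Hmmr, the spindle protein RHAMM, measured 10.23, 10.18 and 10.13 on the Gata3+/- arrays and 10.09, 10.46 and 10.18 on the Gata3-/- arrays, with overlap and a difference of 0.06 (SE 0.11, adjusted p = 0.796). In cytokinesis, Racgap1, which with KIF23 forms centralspindlin, measured 10.60, 10.55 and 10.59 on the Gata3+/- arrays and 9.84, 9.94 and 10.29 on the Gata3-/- arrays. Its Gata3+/- arrays were close together and its Gata3-/- arrays spread, with array 3 nearest to the other genotype, and the difference was -0.55 (SE 0.13, adjusted p = 0.0723). Anln, the contractile ring protein anillin, had a larger difference of -0.65 (SE 0.22, adjusted p = 0.159), but its Gata3-/- array 3 overlapped the Gata3+/- arrays. Ect2, the activator of RhoA at the cleavage site, differed by -0.32 (SE 0.16, adjusted p = 0.298).

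Genes that compact and disentangle chromosomes had a median difference of -0.25, with 5 of 6 negative. With limma 0 passed, and the smallest adjusted p was 0.185. At an unadjusted limma p under 0.05, 2 were lower, where 12.3% of all genes were. Smc4, a core ATPase of condensin, stood at 12.73, 12.81 and 12.58 on the Gata3+/- arrays and 12.22, 12.51 and 12.47 on the Gata3-/- arrays and differed by -0.30 (SE 0.11, adjusted p = 0.185), without overlap. Its partner Smc2 differed by -0.17 (adjusted p = 0.312), and the condensin I subunits Ncaph, Ncapd2 and Ncapg by -0.29 (adjusted p = 0.197), -0.22 (adjusted p = 0.349) and -0.48 (adjusted p = 0.239). Top2a, the topoisomerase that untangles sister chromatids, measured 12.19, 12.36 and 12.56 on the Gata3+/- arrays and 12.38, 12.50 and 12.44 on the Gata3-/- arrays, with overlapping arrays and a difference of 0.07 (SE 0.11, adjusted p = 0.761). Outside these roles, Plk4, the kinase that starts centriole duplication, stood at 11.09, 11 and 10.97 on the Gata3+/- arrays and 10.41, 10.67 and 10.76 on the Gata3-/- arrays, a difference of -0.40 (SE 0.11, adjusted p = 0.101). Mki67, the proliferation marker Ki-67, measured 12.82, 13.05 and 12.73 on the Gata3+/- arrays and 12.54, 12.54 and 12.52 on the Gata3-/- arrays. Its 3 Gata3-/- arrays were almost equal and all lay below the Gata3+/- arrays, with a difference of -0.33 (SE 0.10, adjusted p = 0.126).

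**Figure D2:**
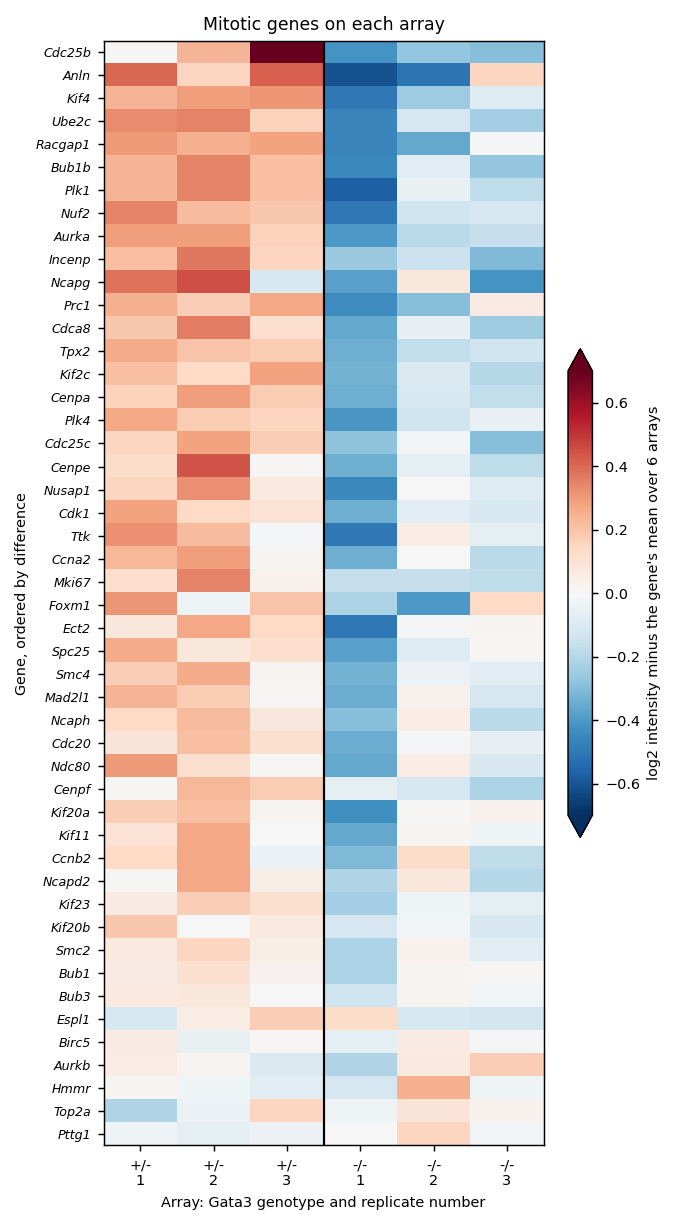
Level of each of the 48 mitotic genes on each of the 6 arrays, as log2 intensity minus the mean of that gene over the arrays (red higher, blue lower), with genes ordered by their difference and Gata3+/- arrays on the left. Gata3-/- array 1 was the lowest array for 39 genes and Gata3+/- array 2 the highest for 25.

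The arrays within a genotype were not equal. The median over the 48 genes of the log2 deviation from each gene's mean was 0.17, 0.22 and 0.11 on Gata3+/- arrays 1 to 3 and -0.34, -0.03 and -0.11 on Gata3-/- arrays 1 to 3, against values between -0.02 and 0.02 for all genes tested. Gata3-/- array 1 thus stood lowest, and it was the lowest of the 6 arrays for 39 of the 48 genes, compared with 15.7% of all genes. Gata3-/- array 2 came closest to the other genotype, with 34 of the 48 genes below all Gata3+/- arrays, compared with 45 on array 1 and 40 on array 3. Among all genes these shares were 32.1%, 34.3% and 37.0%. Without Gata3-/- array 1 the median difference was -0.25, with 43 of 48 negative and 18 lower at an unadjusted p under 0.05. Leaving out Gata3-/- array 2 gave -0.39, with 46 negative and 30 lower at that p. The count at that p moved most without Gata3+/- array 1, from 27 to 17, with a median difference of -0.31.

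Other probe sets of the same genes were read as a check on the choice of 1 probe set per gene. Of 114 probe sets for the 48 genes, 96 were tested, and 85 of these had a negative difference. The 48 probe sets not chosen to stand for their gene came from 30 genes; 41 were negative and 0 passed with limma. Among them, 3 had a sign opposite to the chosen probe set, with differences of 0.06 for Bub3, -0.04 for Hmmr and -0.01 for Top2a, all genes close to 0. For Prc1 a second probe set differed by -0.49 (adjusted p = 0.0551) and for Bub1b by -0.56 (adjusted p = 0.0691). The other tested probe sets of Incenp, the called gene, differed by -0.45, -0.78 and -0.75 (adjusted p = 0.0849, 0.262 and 0.148). Averaging the tested probe sets of each gene called 5 of the 48, all lower, where 7.10% of all genes were called.

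The 4 genes with positive differences all lie on chromosome 11. Genes on chromosome 11 lay higher in Gata3-/- arrays as a whole, with a median difference of 0.33 over 886 tested genes, of which 11.7% were negative. The list holds 5 genes there: Aurkb, Birc5, Hmmr, Pttg1 and Top2a. They ran from -0.01 for Birc5 to 0.09 for Pttg1, all 5 were below the chromosome's median, and 10.3% to 18.7% of its other genes lay lower. Set against the median of the other genes of the chromosome, these 5 lay at -0.34 for Birc5, -0.31 for Aurkb, -0.27 for Hmmr, -0.26 for Top2a and -0.24 for Pttg1. On chromosome 6 Foxm1, Mad2l1 and Ncapd2 had differences of -0.32, -0.29 and -0.22 against a median of 0.00. No gene of the list lies on chromosome 14. Measured this way, 48 of 48 genes lay below the median of the other genes of their own chromosome, and the median of these gaps was -0.31. This comparison with chromosome medians was chosen after seeing the data, and whether the shift of chromosome 11 acts on these genes was not tested.

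The comparison was repeated without chromosomes 6, 11 and 14. There 40 of 40 mitotic genes were negative, where 58.4% of 8557 genes were, and the median difference was -0.36. At an unadjusted limma p under 0.05, 27 of 40 were lower, against 13.6% of genes, and 31 of 40 did not overlap with all Gata3-/- arrays lower, against 18.6%. In that fit 0 of 40 passed the threshold with limma, where 2.71% of genes passed (1.6% lower), and the smallest adjusted p was 0.0578. Centring each chromosome on its median on every array, also chosen after seeing the data, gave negative differences for 48 of 48, a median of -0.33, 25 at an unadjusted p under 0.05 and 0 called with limma, where 3.03% of all genes were called. Under that centring Birc5 differed by -0.36 (adjusted p = 0.105).

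**Figure D3:**
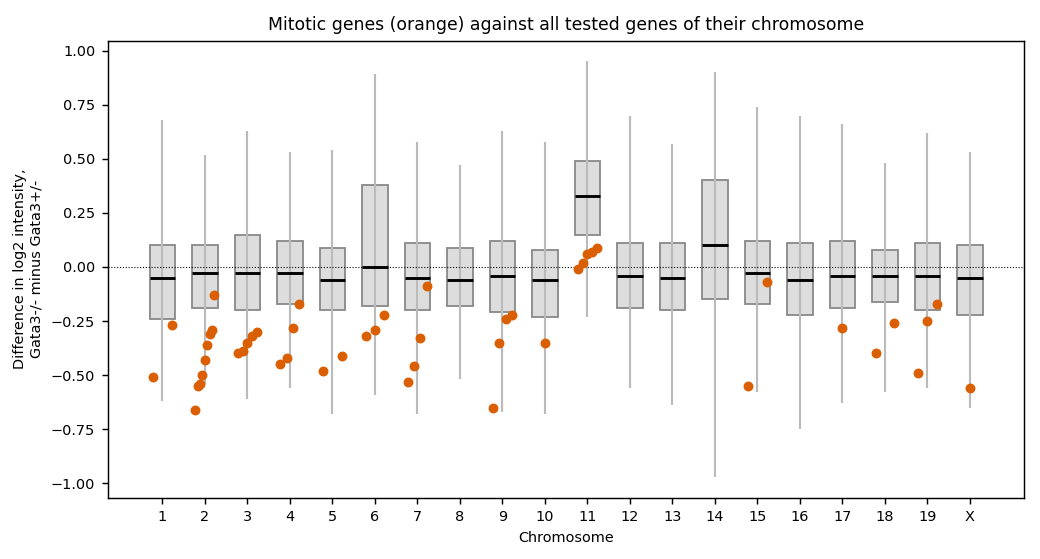
Difference between genotypes (log2, Gata3-/- minus Gata3+/-) by chromosome. Boxes span the 25th to 75th percentile of all tested genes of a chromosome, lines the 5th to 95th, black bars the median, and orange points are the mitotic genes. The 5 points on chromosome 11 lie between -0.01 and 0.09, under that chromosome's median of 0.33.

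A wider list of 63 other mitotic genes, also drawn up with earlier results known, gave 61 tested genes, of which 53 were negative, with a median of -0.22. In this list 3 of 61 genes were called lower and 0 higher, where 2.41% and 2.86% of all genes were. Dlgap5, a spindle assembly factor, fell by 0.74 (SE 0.09, adjusted p = 0.0312) and Pbk, a mitotic kinase, by 0.69 (SE 0.11, adjusted p = 0.0379). Nsl1, a subunit of the kinetochore MIS12 complex, fell by 0.60 (SE 0.08, adjusted p = 0.0330). Dlgap5 and Pbk lie on chromosome 14. Kif14 and Kif15 never reached the minimum. Subunits and partners of the anaphase promoting complex, 14 genes, had a median of -0.12 with 8 negative and 0 called with limma. At an unadjusted limma p under 0.05, 4 were lower and 2 higher, against 12.3% and 13.6% of all genes. The 2 higher genes, Anapc11 and Cdc27, each at 0.33, lie on chromosome 11, where the median difference was 0.33. The smallest p were those of Cdc16 at -0.32 (adjusted p = 0.0903) and Fzr1 at -0.22 (adjusted p = 0.113). Cohesin genes, 10 in number, which act throughout the cycle, had a median of -0.03 and 0 called. At the same unadjusted p under 0.05, 0 were lower and 1 higher. The smallest p were those of Wapl, on chromosome 14, at 0.33 (adjusted p = 0.0557) and Smc1a at -0.22 (adjusted p = 0.244).

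Genes of DNA replication and the G1/S transition had a median of -0.17 over 42 tested genes. Of these, 34 were negative, where 53.3% of all genes were, and 0 passed with limma. At an unadjusted limma p under 0.05, 9 were lower and 1 higher, against 12.3% and 13.6% of all genes. E2f1, an activator of the G1/S transition, differed by -0.54 (adjusted p = 0.0614) and Mcm2, a subunit of the replicative helicase on chromosome 6, by 0.50 (adjusted p = 0.0640). The share of genes lower at an unadjusted p under 0.05 was 56.2% for the mitotic genes, 32.8% for the wider mitotic list and 21.4% for the replication genes. Over all genes it was 12.3%, and the difference between these lists was not tested.

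Of 16 tested activators and repressors of the G2/M programme, Lin9, a MuvB core subunit, fell by 0.64 (SE 0.11, adjusted p = 0.0422) and the other 15 did not pass. Of all genes, 2.41% were called lower. The median of that list was -0.11. Of 18 tested cell cycle brakes, inhibitors of cyclin-dependent kinases and checkpoint genes, 2 were called lower and 0 higher, where 2.41% and 2.86% of all genes were. At an unadjusted limma p under 0.05, 5 were lower and 6 higher, against 12.3% and 13.6% of all genes. Cdkn2c, the CDK4 and CDK6 inhibitor p18, stood at 7.84, 8.18 and 8.41 on the Gata3+/- arrays and 6.86, 7.16 and 7.18 on the Gata3-/- arrays, a difference of -1.08 (SE 0.17, adjusted p = 0.0383). Cdkn2d, the related inhibitor p19, fell by 0.62 (SE 0.10, adjusted p = 0.0373). Also lower at an unadjusted limma p under 0.05 were Cdkn1b at -0.44 (adjusted p = 0.0503), Wee1 at -0.47 (adjusted p = 0.0582) and Pkmyt1 at -0.20 (adjusted p = 0.179). The 4 brakes with the largest differences lay above 0 but did not pass. The 6 genes higher at that unadjusted p had adjusted p values between 0.0677 and 0.0885. Brakes that were not called were named after their values were seen. The 6 higher genes were Cdkn2b at 2.74 (SE 0.71), Gadd45b at 2.08 (SE 0.47), Cdkn2a at 1.70 (SE 0.38), Cdkn1a, the inhibitor p21, at 1.28 (SE 0.29), Gadd45a at 0.87 (SE 0.22) and Ccng1 at 0.65 (SE 0.15). On Gata3+/- arrays 1 to 3, Cdkn2b stood at 8.40, 5.81 and 8.08 and Gadd45b at 9.25, 7.69 and 9.30, with array 2 lowest. There Cdkn2a stood at 4.36, 4.80 and 5.31, near the minimum of 4. Ccng1 lies on chromosome 11, where the median difference was 0.33, and Gadd45a and Cdkn1b lie on chromosome 6. In 7 of the 18 brakes all Gata3-/- arrays lay above all Gata3+/- arrays, against 16.9% of all genes, and in 5 all lay below, against 16.7%. The median of the list was 0.03.

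**Figure D4:**
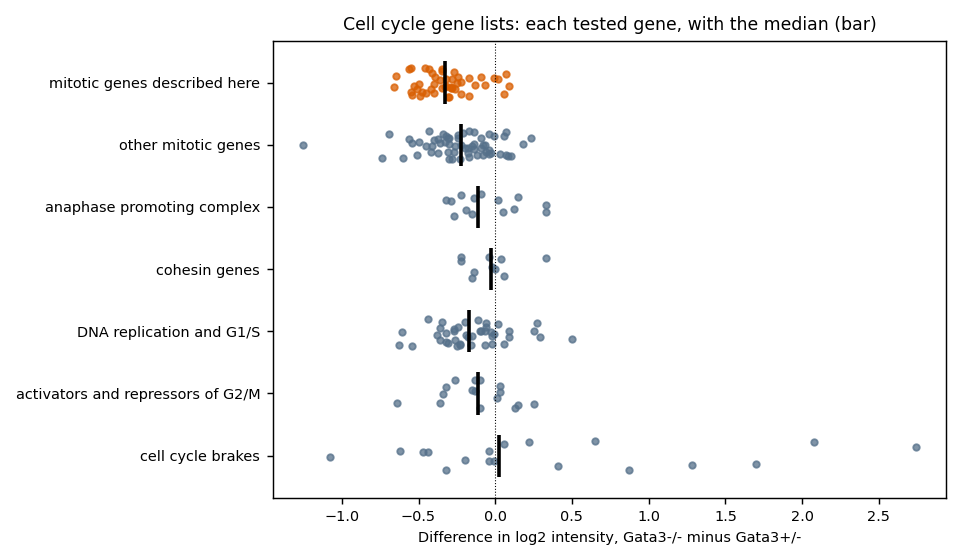
Difference between genotypes (log2, Gata3-/- minus Gata3+/-) for each tested gene of 7 cell cycle lists, with vertical spread for visibility and a black bar at each median. The medians were -0.33 for the mitotic genes described here, -0.22 for other mitotic genes, -0.17 for replication genes and 0.03 for brakes.

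Markers of the cells in the sort were read on the same arrays. Of 15 T-lineage markers matched, 13 never reached the minimum on any array, among them Cd3e, Cd4, Cd8a, Ptcra, Bcl11b, Thy1 and Il2ra, so most genes that define the labelled cell type were not measurable here. The 2 tested were Cd7, on chromosome 11, at 1.16 (adjusted p = 0.118) and Lat at -0.85 (adjusted p = 0.157). All Gata3-/- arrays lay above all Gata3+/- arrays for Cd7 and below them for Lat, against 16.9% and 16.7% of all genes. Of 12 macrophage and monocyte markers, 11 were measured, all but Marco. Over all 12, Marco included, the mean log2 level ran from 11.79 to 11.90 on Gata3+/- arrays and from 11.15 to 11.40 on Gata3-/- arrays. Of the 11, 10 were negative, and Ccr2, Mpeg1 and Fcgr1 were called lower, where 2.41% of all genes were. Ctss (-0.10) and Lyz2 (-0.11) overlapped between genotypes. Cd68, on chromosome 11, went the other way, with a difference of 0.53 (adjusted p = 0.0541). Of 9 dendritic cell markers matched, 7 were measured, and the means over all 9 were 7.43 to 7.66 and 7.22 to 7.53. In that list Siglech was called lower and Zbtb46 higher, where 2.41% and 2.86% of all genes were. Siglech stood at 7.59, 9.02 and 7.50 on the Gata3+/- arrays and 3.76, 3.81 and 3.04 on the Gata3-/- arrays. Its Gata3-/- values all lay under the minimum. It was therefore tested only through the Gata3+/- arrays, and the size of its difference is uncertain. OP9 stromal markers, 12 of 14 measured, overlapped in their mean over all 14, at 7.06 to 8.26 and 6.74 to 8.18. With limma 0 of the 12 passed. The smallest p were those of Postn at -0.77 (adjusted p = 0.138) and Pdgfra at -0.89 (adjusted p = 0.523). Both lay near the minimum, with means over the arrays of 4.95 and 4.24, and only Postn showed no overlap between genotypes. Dcn and Lum never reached the minimum, and both arrays numbered 2 were lowest in the mean over all 14. Without both of those arrays the mitotic genes had a median of -0.37, with 45 of 48 negative and 17 lower at an unadjusted limma p under 0.05. The part of these cell types in the mitotic differences was not tested. The 11 genes called in the other lists, from Dlgap5 to Zbtb46, kept their direction but were not called when any 1 array was left out (adjusted p between 0.0664 and 0.128), as was the case for nearly all genes.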

How the data were processed

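Expression was measured on 6 arrays, 3 labelled Gata3+/- and 3 labelled Gata3-/-, grouped by the genotype in each title. Per the labels, the deposited values are linear GC-RMA intensities, background-corrected and normalized between arrays by the authors, and GCOS appears in the submitters' processing notes. No source used here gives versions or settings. The number of arrays limits the precision.

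Deposited intensities were converted to log2, with no further normalization, and 64 control probe sets were left out. Of 45101 probe sets, 20102 reached a log2 value of 4 on at least 3 arrays and were tested. Gene symbols came from the platform annotation (34958 probe sets with 1 symbol, 932 with several), and chromosomes and promoters from RefSeq, assembly GRCm38.p6. Differences were fitted in R version 4.3.3 by limma version 3.58.1 (lmFit, eBayes, two-sided), with Benjamini-Hochberg adjustment over all probe sets tested and a threshold of 0.05. The procedure was tested on simulated data. Plots used matplotlib version 3.10.9 in Python version 3.11.15.

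Members, gene lists and tests were chosen with earlier results of these data known. Values per array were given for members called, the 16 with the smallest p, the 6 with the highest mean and the smallest p of each role. Aurkb, Hmmr and Top2a were added after their values were seen. From the other lists, called genes (up to 6), or otherwise the 2 smallest p, were named. Further brakes and macrophage markers were named after their values were seen. Alternatives were array weights, robust eBayes with a variance trend, median centring, quantile normalization, no filter, a stricter filter (log2 value of 6), a block for the replicate number, averaging probe sets, leaving out arrays and leaving out chromosomes 6, 11 and 14. Centring each chromosome was chosen after seeing the data.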

Additional observations from a re-analysis of the deposited data

How the results depend on the processing

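How many mitotic genes were called depended on the setting. Of 48 tested, 1 was called as reported. The count was 0 without a filter (0.539% of all genes called), with quantile normalization (5.26%), with median centring (5.47%), with each chromosome centred (3.03%), without chromosomes 6, 11 and 14 (2.71%), and without both arrays numbered 2 (0.0291%). It was 7 with a filter at a log2 value of 6, 7 with a variance trend and robust eBayes, 12 with array weights and 5 with probe sets averaged, all of them lower, while 7.34%, 8%, 11.9% and 7.10% of all genes were called in those fits. Leaving out each array in turn called 0 in every case with limma, where 0 to 4 of all 10302 genes were called, so these counts say nothing particular to the mitotic genes. These fits had 17 to 30 lower at an unadjusted p under 0.05 against 27 with all arrays, and 17 without both arrays numbered 2. Without chromosomes 6, 11 and 14 the count of 0 became 1 with the stricter filter, 4 with the variance trend, 10 with array weights and 1 with probe sets averaged. The 3 calls among other mitotic genes became 1 without a filter, 5 with the stricter filter, 5 with the variance trend, 7 with array weights, 6 with probe sets averaged, 1 without the 3 chromosomes, and 0 without both arrays numbered 2 or any 1 array. The cause of these changes was not tested. Fits that leave out arrays or chromosomes also hold fewer arrays or genes. Across all the fits 43 to 46 of the 48 genes were negative (48 of 48 with chromosomes centred, 40 of 40 without the 3 chromosomes). The median difference lay between -0.39 and -0.25.

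With the replicate block 0 of the 48 mitotic genes and 0 other mitotic genes were called with limma, against 2.89% of all genes, and 27 mitotic genes were lower at an unadjusted p under 0.05. Over all tested probe sets, same-numbered arrays had correlations of 0.005, 0.695 and 0.429 in their deviations from their own genotype, for numbers 1 to 3. Arrays of unlike number ranged from -0.618 to 0.424. Over the mitotic genes alone, same-numbered arrays had -0.367, 0.636 and 0.228. The labels name no batch, and the main fit treated the arrays as unpaired.

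Signs turned only for genes near 0, none of them called: Pttg1 (-0.26), Top2a (-0.28), Hmmr (-0.29) and Aurkb (-0.33) with chromosomes centred, Espl1 (0.02), Hmmr (-0.01) and Aurkb (-0.02) with array weights, Birc5 (0.02) with quantile normalization, Hmmr (-0.05) without both arrays numbered 2, and on leaving out 1 array Top2a (range -0.02 to 0.16), Hmmr (-0.05 to 0.14), Birc5 (-0.05 to 0.02) and Aurkb (-0.06 to 0.13).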
